A study of Homo sapiens with 6 samples.

Results

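Interferon-stimulated effector genes are the genes that a cell switches on when interferon reaches it, and 41 of them were followed here in HCT116 cells after siRNA against CDK4 and CDK6. They were chosen by name, with earlier results of these data known, so their counts beside all genes are a description and not a test. Where a gene had several probe sets, the brightest on average represented it. Of the 41 genes, 40 were measured, among 19775 genes in all, and STAT2 was not analysed here. HCT116 is an epithelial line from a human colorectal carcinoma. Cells of the treated group received a pool of siRNAs against CDK4 and a siRNA against CDK6, each at 30 nM, and cells of the control group received the matching non-targeting pool and negative control siRNA, each at 30 nM. Both groups were transfected with siRNA duplexes and the same lipid reagent, and no untransfected group was analysed here. The duplexes of the groups differ in sequence, and each group received a single set. An effect of the duplexes themselves therefore cannot be told apart from an effect of losing the kinases. RNA was taken 96 h after transfection from 3 biological replicates per group, each on 1 array. The labels do not say whether the replicates were separate cultures. A p-value here therefore sets a group difference only against the spread among these arrays, and whether it holds for new cultures was not tested. An siRNA acts only for a time, and at 96 h the RNA of CDK4 and CDK6 was lowered only in part. Kinase protein was not analysed here, and a single line was used. In bulk RNA, fewer cells that express a gene and less RNA per cell cannot be told apart.

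Type I and type III interferons bind receptors that signal through the kinases JAK1 and TYK2. The signal leads to a complex that holds STAT2 and IRF9 and binds a GAAA repeat, the interferon-stimulated response element, upstream of target genes. The products block steps of virus growth, such as entry, RNA translation, genome copying and release. Many tumour lines keep some of these genes on without added interferon.

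Expression is given as RMA values in log2 units, in which 1 unit is a factor of 2, and differences are CDK4/6 siRNA minus control siRNA from limma. A gene was called at a Benjamini-Hochberg adjusted p under 0.05 over all genes. CDK6 fell by 1.56, to 34.0% of the control level, and CDK4 fell by 0.69, to 62.2%, with no overlap between groups. Array medians lay between 5.36 and 5.39, and arrays correlated at 0.998 within groups and 0.991 to 0.994 between groups, across genes. Of 10 epithelial identity genes, KRT8 (0.59) and KRT18 (0.51) rose and CDH1 (-0.54), CLDN4 (-0.52) and ELF3 (-0.75) fell, EPCAM and KRT19 were bright and not called, and CDX2 and VIL1 were dim. All 9 fibroblast and endothelial markers had group means between 3.85 and 6.79. Of 10 leukocyte markers, with group means of at most 6.19, HLA-DRA rose by 0.47 and ITGAM fell by 0.23, and the mean of the list ran from 4.85 to 4.90 in control arrays and from 4.82 to 4.92 in CDK4/6 siRNA arrays.

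Members were more often higher than lower after CDK4/6 siRNA. Of 40 members, 17 rose and 3 fell, while 14.0% of all genes were called higher and 12.9% lower. The median difference was 0.21 over the members and -0.0011 over all genes. All 17 that rose did not overlap between groups, and in the same sense 21 members lay wholly above the controls and 5 wholly below, against 20.6% and 20.3% of all genes. Changes were moderate in size. SAMD9 and IFI6 rose at least 2-fold, the median rise among the 17 was 0.65, and the standard errors of all members ran from 0.051 to 0.14. With arrays scaled to the hybridisation spike-ins, which moves the median of all genes to 0.11, 24 members were higher and 1 lower, beside 23.9% and 6.68% of all genes, and the member median was 0.32.

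The sequences upstream of the members are given first, because the response element is what their regulation is known for. RefSeq windows (GRCh38.p14) from 250 bases before to 50 after the start of transcription were at hand for 35 of the 41 genes. No entry was found for IFIT2, IRF7, MX2, PARP10, TRIM22 and USP18. The letters GAAA, any 2 bases and GAAA again, called the GAAA repeat here and sought on both strands, were in a window of 14 of 16 members that rose, of ISG20, which fell, and of 10 of 17 that were not called, and STAT2 had none. Over all genes with a window, 4.38% had them, and over all windows 3.57%. The longer form with CT after the second GAAA, each match of which is also a match of the shorter form, was found in 10 of the 16 and 6 of the 17, and in 0.322% of all genes and 0.273% of all windows. The letters TTCNNNGAA, the core of the element bound by STAT dimers, were found in 4 of the 16, 6 of the 17, 9.38% of all genes and 7.66% of all windows. A match is a description of the letters and not evidence of binding. Many of these genes are textbook carriers of the response element.

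The 250 bases before the start of IFI6, SAMD9 and SAMD9L are shown as examples of 3 matches, 1 match and no match, with each match to the GAAA repeat in capitals.
IFI6 (chr1:27672193-27672442, minus strand): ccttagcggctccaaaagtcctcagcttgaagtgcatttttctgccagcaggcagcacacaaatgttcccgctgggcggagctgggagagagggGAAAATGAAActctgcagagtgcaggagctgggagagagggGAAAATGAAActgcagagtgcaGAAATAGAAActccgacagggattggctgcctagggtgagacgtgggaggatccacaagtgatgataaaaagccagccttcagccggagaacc
SAMD9 (chr7:93117980-93118229, minus strand): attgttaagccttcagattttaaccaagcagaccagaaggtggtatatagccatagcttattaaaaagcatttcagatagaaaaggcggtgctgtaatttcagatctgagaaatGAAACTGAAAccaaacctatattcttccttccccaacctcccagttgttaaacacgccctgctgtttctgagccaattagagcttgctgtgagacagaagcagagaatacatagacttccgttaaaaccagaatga
SAMD9L (chr7:93148386-93148635, minus strand): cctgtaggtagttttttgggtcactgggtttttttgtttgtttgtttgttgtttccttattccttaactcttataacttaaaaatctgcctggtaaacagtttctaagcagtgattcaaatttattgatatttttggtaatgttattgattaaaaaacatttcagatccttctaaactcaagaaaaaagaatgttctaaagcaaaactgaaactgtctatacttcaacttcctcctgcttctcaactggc

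Counted from the start of transcription, the first match of IFI6 begins at position -156 and the match of SAMD9 at -136.

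Shorter stretches show the match nearest the start, in capitals with 10 bases on each side, for further members that rose. Where the match lies on the other strand the capitals read TTTC, any 2 bases and TTTC.
ISG15 (chr1:1013380-1013409, plus strand): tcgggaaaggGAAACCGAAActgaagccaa
IFIT1 (chr10:89392510-89392539, plus strand): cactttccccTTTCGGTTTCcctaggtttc
IFIT5 (chr10:89414554-89414583, plus strand): atttcttaagTTTCAGTTTCtgagcgctcg
IFI27 (chr14:94110631-94110660, plus strand): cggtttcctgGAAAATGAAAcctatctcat
PARP12 (chr7:140062942-140062971, minus strand): ccggggccgcTTTCGGTTTCgtttcccgcc
LGALS3BP (chr17:78979962-78979991, minus strand): gtggtttctgGAAATCGAAAgtagactctt
BST2 (chr19:17405735-17405764, minus strand): ctgggaaactGAAACTGAAAacctaattaa

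PARP9 and DTX3L are neighbours on chromosome 3 read in opposite directions, their windows overlap by 137 bases, and they hold the same match, printed once on each strand.
PARP9 (chr3:122564322-122564351, minus strand): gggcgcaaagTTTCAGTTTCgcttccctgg
DTX3L (chr3:122564322-122564351, plus strand): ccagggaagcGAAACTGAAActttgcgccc

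The last 3 stretches belong to ISG20, which fell, and to IFIT3 and IFITM3, whose standing probe sets were not called.
ISG20 (chr15:88638937-88638966, plus strand): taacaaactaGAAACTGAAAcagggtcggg
IFIT3 (chr10:89332468-89332497, plus strand): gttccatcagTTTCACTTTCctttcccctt
IFITM3 (chr11:320876-320905, minus strand): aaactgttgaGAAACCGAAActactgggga

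Among the transcription factors of the response, 1 rose, 1 fell and 1 was not called. IRF9, the DNA-binding partner of STAT2, read 7.96, 7.97 and 8.08 in control arrays and 8.35, 8.31 and 8.23 in CDK4/6 siRNA arrays. Every treated array was above every control array, and IRF9 rose by 0.29 (SE 0.062, adjusted p = 0.00739). IRF7, which amplifies interferon production, read 7.84, 7.53 and 7.81 in control arrays and 7.52, 7.41 and 7.39 in CDK4/6 siRNA arrays. The groups came close, at control replicate 2 and CDK4/6 replicate 1, and IRF7 fell by 0.29 (SE 0.087, adjusted p = 0.0360). Leaving out 1 array ended that call for control replicate 1 (-0.23) or 3 (-0.25) and for CDK4/6 replicate 2 (-0.27) or 3 (-0.27), as did the spike-in scaling (-0.18). IRF1, the factor most tied to interferon-gamma, read 6.90, 7.07 and 7.08 against 7.11, 7.10 and 7.10. Its difference of 0.085 (95% interval -0.059 to 0.23) did not pass, and its other probe set gave 0.059. IRF9 has a match to TTCNNNGAA and none to the GAAA repeat in its window.

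**Figure D1:**
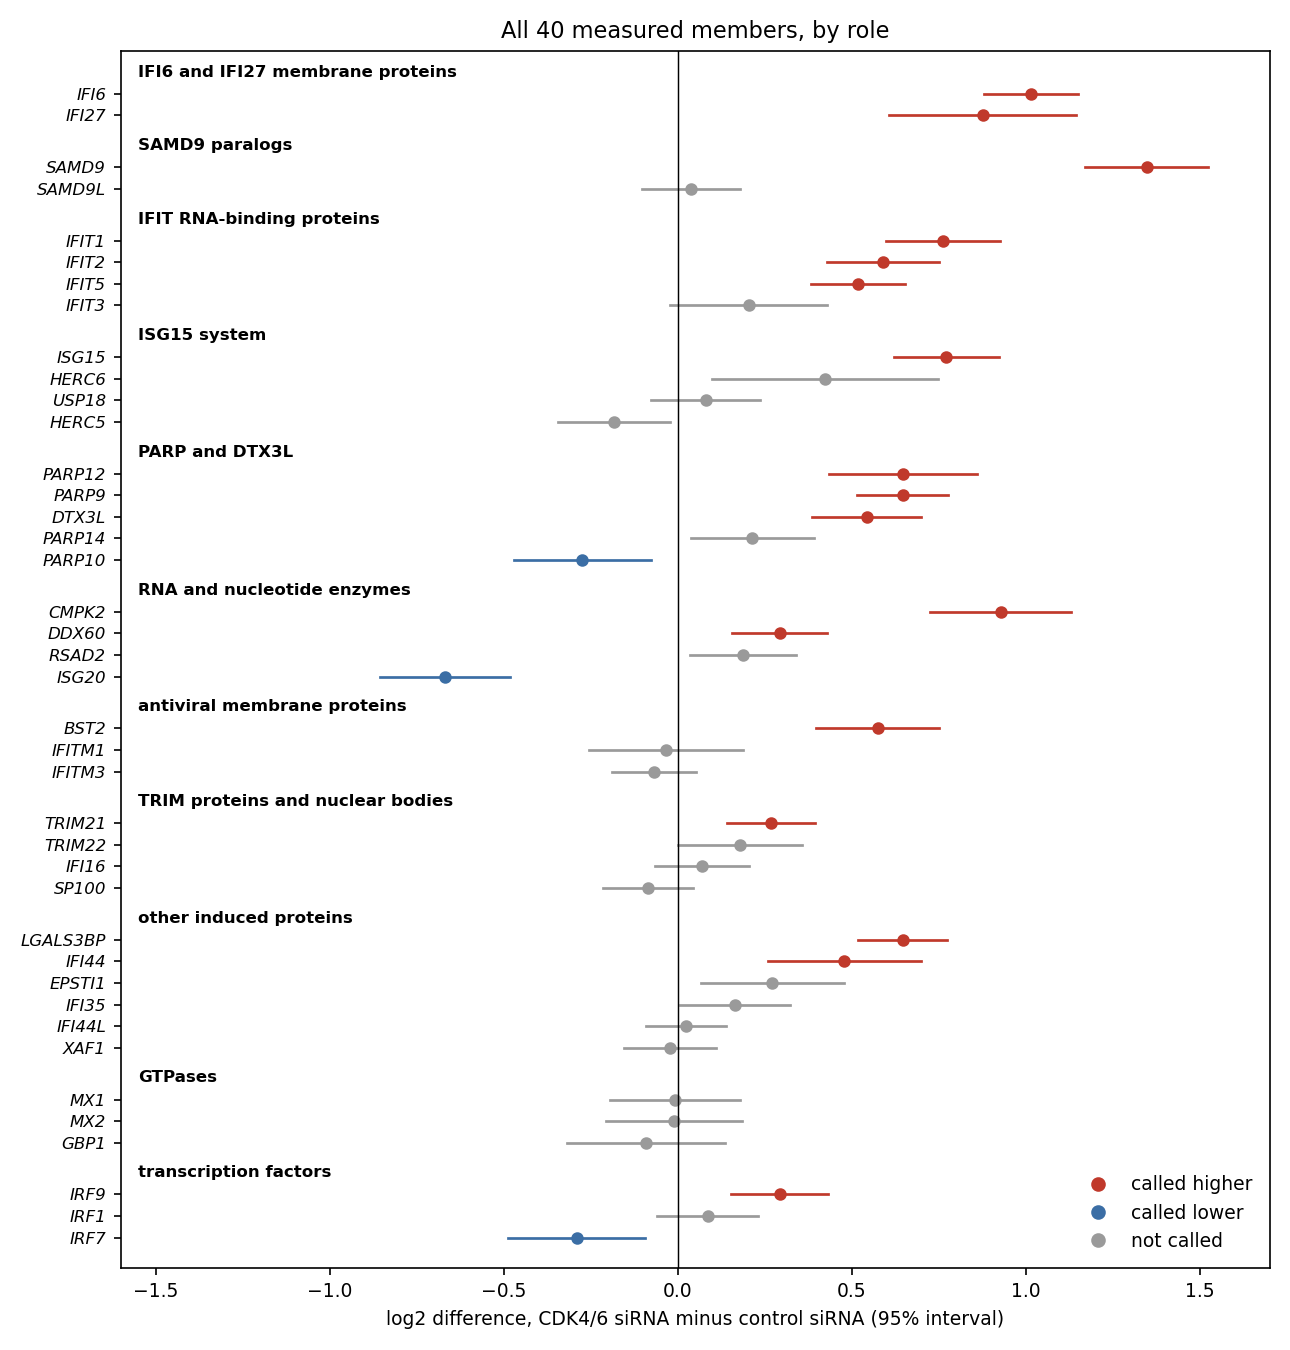
Differences of all 40 measured members in log2 units (CDK4/6 siRNA minus control siRNA), grouped by role, with 95% intervals from limma (n = 3 arrays per group). Red points were called higher, blue points lower and grey points were not called. SAMD9 (1.35) lies furthest to the right and ISG20 (-0.67) furthest to the left, and the GTPases MX1, MX2 and GBP1 lie near 0.

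SAMD9 had the largest difference of any member. SAMD9 restricts poxviruses and acts on translation, and it lies beside its paralog SAMD9L on chromosome 7. SAMD9 read 6.12, 6.19 and 5.95 in control arrays and 7.37, 7.53 and 7.40 in CDK4/6 siRNA arrays. The groups lay more than 1 unit apart, and SAMD9 rose by 1.35 (2.54-fold, SE 0.078, adjusted p = 3.51e-05). A second probe set, at a lower mean level of 5.79, rose by 1.04. SAMD9L read 4.45, 4.26 and 4.33 against 4.39, 4.37 and 4.40, and the groups overlapped. Its difference of 0.039 (95% interval -0.10 to 0.18) did not pass, nor did its other probe sets, at 0.18 and -0.032. All SAMD9L probe sets were dim, with mean levels of at most 4.37, and the difference between the paralogs was not tested.

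IFI6 and IFI27 both rose. They encode small membrane proteins, and IFI6 hinders virus replication at the endoplasmic reticulum. IFI6 read 8.28, 8.13 and 8.19 in control arrays and 9.24, 9.18 and 9.22 in CDK4/6 siRNA arrays. The treated arrays were tightly grouped, and IFI6 rose by 1.02 (2.02-fold, SE 0.060, adjusted p = 3.64e-05). IFI27 read 5.62, 5.86 and 5.74 in control arrays and 6.80, 6.34 and 6.72 in CDK4/6 siRNA arrays. CDK4/6 replicate 2 was the lowest of its group but still above every control, and IFI27 rose by 0.88 (1.83-fold, SE 0.12, adjusted p = 0.000773).

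The IFIT genes, which bind foreign RNA and block its translation, sit in 1 cluster on chromosome 10, and 3 of the 4 rose. IFIT1 read 6.98, 6.995 and 7.13 in control arrays and 7.91, 7.77 and 7.71 in CDK4/6 siRNA arrays. Without overlap, IFIT1 rose by 0.76 (1.69-fold, SE 0.072, adjusted p = 0.000158). IFIT2 read 6.42, 6.32 and 6.48 against 7.06, 7.05 and 6.88. It rose by 0.59 (1.504-fold, SE 0.070, adjusted p = 0.000438), while a dim second probe set, at a mean of 5.33, gave 0.039 and did not pass. IFIT5 rose by 0.52 on its brightest probe set and by 0.86 on the other. For IFIT3, the partner that stabilises IFIT1, the result turns on the probe set. The one that stands for the gene by the rule read 5.76, 5.92 and 5.53 against 5.85, 5.92 and 6.06, and its difference of 0.20 (adjusted p = 0.181) did not pass. The other, only slightly dimmer at a mean of 5.74 against 5.84, read 5.08, 5.34 and 5.16 against 6.30, 6.30 and 6.25. It rose by 1.09 (SE 0.078, adjusted p over probe sets = 9.01e-05), more than any member's standing probe set except that of SAMD9, and averaged over its probe sets IFIT3 rose by 0.65.

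In the ISG15 system the modifier rose while HERC5, HERC6 and the protease were not called. ISG15, a ubiquitin-like protein that is joined to other proteins and also secreted, was bright in control cells. It read 10.41, 10.35 and 10.27 in control arrays and 11.20, 11.11 and 11.03 in CDK4/6 siRNA arrays. ISG15 rose by 0.77 (1.71-fold, SE 0.067, adjusted p = 0.000113). HERC5, the main ISG15 ligase of human cells, had a mean of 8.09 ± 0.084 in control arrays and 7.90 ± 0.098 in CDK4/6 siRNA arrays (SD, n = 3), with all treated arrays below the controls. Its difference of -0.18 (adjusted p = 0.0948) did not pass. HERC6, its neighbour on chromosome 4, spread widely, from 5.96 to 6.54 in control arrays and from 6.51 to 6.87 in CDK4/6 siRNA arrays. HERC6 gave 0.42 (SE 0.14, adjusted p = 0.0587), and it passed in 7 of 18 alternatives, among them those without control replicate 1 (0.56), without CDK4/6 replicate 2 (0.51) and with the spike-in scaling (0.53). USP18, which removes ISG15 and restrains the receptor, gave 0.080 (95% interval -0.076 to 0.24) and did not pass.

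Of the PARP enzymes and DTX3L, 3 rose, 1 fell and 1 was not called. PARP9 and DTX3L, which work together as a ubiquitin ligase and share the match printed above, moved alike. PARP9 read 7.72, 7.66 and 7.69 in control arrays and 8.41, 8.30 and 8.30 in CDK4/6 siRNA arrays, and DTX3L read 7.84, 7.85 and 7.67 against 8.33, 8.26 and 8.39. Neither gene overlapped between groups. PARP9 rose by 0.65 (SE 0.057, adjusted p = 0.000119) and DTX3L by 0.54 (SE 0.069, adjusted p = 0.000578). A second PARP9 probe set, the one with a plain name that marks probes not shared with other transcripts, gave 0.20 and did not pass. PARP14, close by on chromosome 3, gave 0.21 (adjusted p = 0.0737), and it passed without CDK4/6 replicate 2 (0.28) and with the spike-in scaling (0.32).

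PARP12, which modifies proteins with single ADP-ribose units, read 7.95, 7.86 and 7.65 in control arrays and 8.62, 8.40 and 8.37 in CDK4/6 siRNA arrays. Without overlap, PARP12 rose by 0.65 (SE 0.094, adjusted p = 0.00111). PARP10, an enzyme of the same kind, read 6.68, 6.48 and 6.40 against 6.30, 6.12 and 6.32. It fell by 0.27 (SE 0.086, adjusted p = 0.0443) with the groups close together, and its 3 other probe sets gave -0.046, 0.079 and -0.039. Its call was lost when control replicate 1 (-0.20) or 2 (-0.29) or any CDK4/6 replicate (-0.30, -0.21 and -0.31 without 1, 2 and 3) was left out, with the spike-in scaling (-0.17) and when its probe sets were averaged (-0.070).

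**Figure D2:**
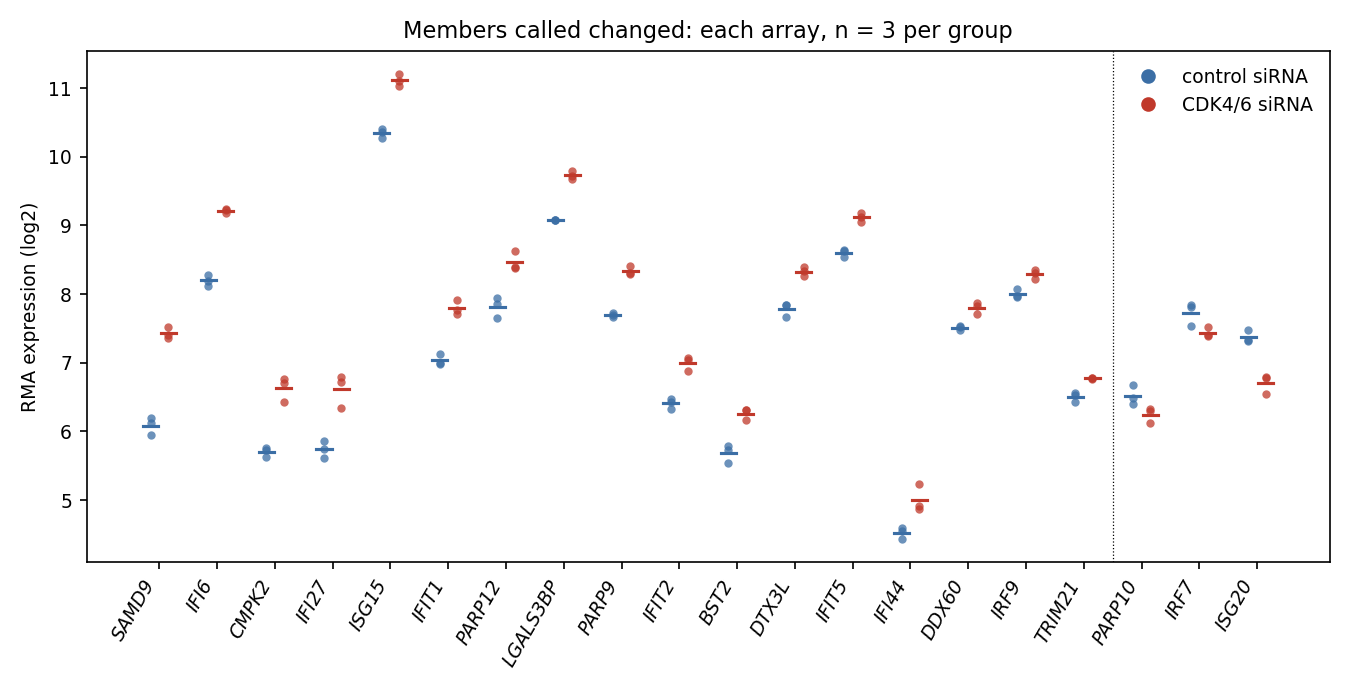
RMA expression (log2) of the 17 members that rose, left of the dotted line, and the 3 that fell, right of it. Points are single arrays (blue control siRNA, red CDK4/6 siRNA, n = 3 each) and bars are group means. The groups do not overlap for any of the 20 genes, and for IRF7 and PARP10 they nearly meet.

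The enzymes of RNA and nucleotides went in both directions. CMPK2, a mitochondrial nucleotide kinase, read 5.75, 5.73 and 5.63 in control arrays and 6.71, 6.76 and 6.43 in CDK4/6 siRNA arrays. CMPK2 rose by 0.93 (1.90-fold, SE 0.089, adjusted p = 0.000167). RSAD2, which makes a chain-terminating nucleotide, is the neighbour of CMPK2 on chromosome 2 and is read the other way, with windows that overlap by up to 165 bases. RSAD2 was dim, at 3.97, 3.79 and 3.84 against 4.12, 4.04 and 4.004, and its difference of 0.19 (adjusted p = 0.0699) did not pass. RSAD2 passed when control replicate 1 was left out (0.24) or spike-ins set the scale (0.30). The helicase DDX60 rose by 0.29 (adjusted p = 0.00637).

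ISG20, an exonuclease that degrades RNA, had the largest fall of the 3 members called lower. It read 7.33, 7.32 and 7.48 in control arrays and 6.79, 6.54 and 6.78 in CDK4/6 siRNA arrays. Every treated array lay below every control array, and ISG20 fell by 0.67 (SE 0.082, adjusted p = 0.000504), to 62.9% of the control level. Its second probe set read 7.10, 7.17 and 7.29 against 6.71, 6.72 and 6.60 and fell by 0.51. ISG20 was the 1 member that stayed lower with the spike-in scaling (-0.56).

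Of the antiviral membrane proteins, BST2 rose and the 2 IFITM genes were not called. BST2, or tetherin, which holds budding virus at the cell surface, read 5.79, 5.54 and 5.73 in control arrays and 6.31, 6.17 and 6.31 in CDK4/6 siRNA arrays. BST2 rose by 0.57 (1.49-fold, SE 0.077, adjusted p = 0.000774). IFITM3, which blocks virus entry at endosomes, was the brightest member, at 12.49, 12.52 and 12.56 against 12.49, 12.44 and 12.44. Its difference of -0.069 (95% interval -0.19 to 0.051) did not pass. IFITM1, its neighbour on chromosome 11, gave -0.035 (95% interval -0.26 to 0.19). A second IFITM1 probe set, whose annotation also names IFITM2, gave -0.13 and did not pass.

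Among the remaining proteins, LGALS3BP, a secreted glycoprotein that binds galectins, read 9.08, 9.09 and 9.08 in control arrays and 9.80, 9.72 and 9.67 in CDK4/6 siRNA arrays. The controls were nearly identical, and LGALS3BP rose by 0.65 (1.56-fold, SE 0.056, adjusted p = 0.000115). IFI44 rose by 0.48 (adjusted p = 0.00586) on a dim probe set at a mean of 4.77, and a dimmer one at 3.29 gave 0.14 and did not pass. Its neighbour on chromosome 1, IFI44L, gave 0.024 at a mean of 3.98. TRIM21, an antibody receptor inside the cell, rose by 0.27 (adjusted p = 0.00709). IFI35 (0.16), EPSTI1 (0.27) and TRIM22 (0.18) lay on the higher side without passing. Of these, EPSTI1 passed without CDK4/6 replicate 3 (0.35), TRIM22 without CDK4/6 replicate 2 (0.26), and all 3 with the spike-in scaling.

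Several members at low levels were not called. The dynamin-like GTPases MX1 and MX2 had mean levels of 4.09 and 4.78 and gave -0.0076 and -0.010. GBP1 gave -0.090 at a mean of 3.82, so in limma 0 of the 3 GTPases were called, and 0 had an unadjusted p under 0.05. The DNA sensor IFI16 (0.069) and the XIAP partner XAF1 (-0.022) had mean levels of 3.80 and 4.06. No detection calls were used, so whether such values are above the background of the array was not tested. Of 17 members with a mean level under the median of all genes (6.47), 4 rose and 1 fell, while 3.16% of all genes under that level were called higher and 7.87% in either direction. Of 23 members at or above it, 13 rose and 2 fell, while 24.8% of all genes there were called higher and 45.8% in either direction. A call was thus rarer at low levels in the members and in the whole array alike.

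**Figure D3:**
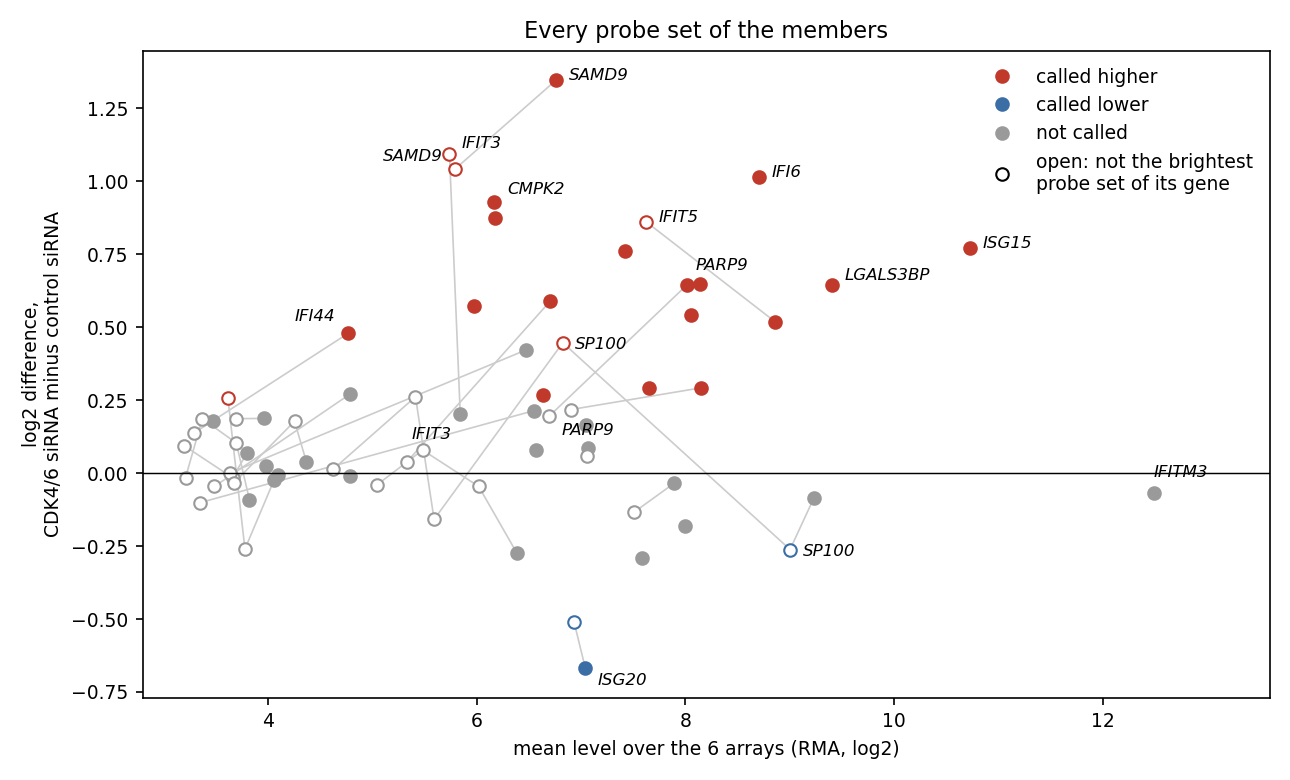
All 71 probe sets of the members, with the mean level over 6 arrays (RMA, log2) on the horizontal axis and the log2 difference on the vertical axis. Filled points stand for their gene and open points are its other probe sets, joined by grey lines, with colours from limma adjusted over all probe sets. Open points of IFIT3 (1.09) and SAMD9 (1.04) lie as high as the leading genes, and those of SP100 lie on both sides of 0. The points of IRF7 and PARP10, called lower over genes, are grey here.

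The probe sets of 1 gene did not always move together. The 40 members had 71 probe sets, 20 of the genes having more than 1. Tested separately, 22 probe sets rose and 3 fell, while 8.86% of all probe sets on the array were called higher and 8.17% lower. The 3 belong to ISG20 and SP100. In this limma fit IRF7 and PARP10 were not called (adjusted p over probe sets = 0.0554 and 0.0676 for their standing probe sets). In SAMD9, IFIT5 and ISG20 every probe set was called the same way. SP100, a protein of nuclear bodies with several splice forms, was called both ways. Its brightest probe set gave -0.086 and was not called, the next, at a mean of 9.002, fell by 0.26, and another, at a mean of 6.82, rose by 0.45 (adjusted p over probe sets = 0.0284 and 0.0201). A dim XAF1 probe set, at a mean of 3.61, rose by 0.26, while another, at a mean of 3.78, gave -0.26 and was not called (adjusted p over probe sets = 0.0401 and 0.0752). The brightest XAF1 probe set was not called.

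Averaged over all 40 members, the level was 6.56, 6.55 and 6.53 in control arrays and 6.89, 6.81 and 6.80 in CDK4/6 siRNA arrays. Over the 17 members that rose, which were selected on these same arrays, it was 7.24, 7.21 and 7.20 against 7.93, 7.88 and 7.83. CDK4/6 replicate 1 was the highest of its group for 11 of the 17 genes and CDK4/6 replicate 3 the lowest for 11. Among the control arrays, control replicate 1 was the highest for 8 of the 17.

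Other genes of the pathway were taken from lists written from general knowledge. For the interferons themselves, limma called 0 of 18 genes. All lay under the median level of all genes, where 3.16% of genes were called higher and 7.87% in either direction. So few calls are made at such levels that a count of 0 says little about the interferons. At an unadjusted p under 0.05, 2 were higher and 1 lower, and with the spike-in scaling 4 were called higher, beside 23.9% of all genes. All were dim, with group means of at most 5.19. IFNB1, the beta interferon, gave -0.13 (adjusted p = 0.119) at a control mean of 3.58, and IFNL1, a lambda interferon, gave -0.038 at 4.83. No measurement of secreted interferon was used here.

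Receptor and signalling genes had 5 of 10 called lower and 1 higher, beside 12.9% and 14.0% of all genes. Of all genes at or above the median level, where most of the 10 lay, 21.0% were called lower and 24.8% higher. IFNLR1 and IL10RB, the chains of the lambda interferon receptor, fell by 0.63 and 0.57 (adjusted p = 0.000214 and 0.000573). IFNAR1, a chain of the alpha and beta interferon receptor, rose by 0.48 (adjusted p = 0.00168), a call lost with the mean of its 4 probe sets. STAT3 fell by 0.33 (adjusted p = 0.00288). Negative regulators had the same counts, 5 of 10 lower and 1 higher, beside the same shares of all genes. SOCS3, which inhibits JAK kinases, fell by 1.13 (45.6% of the control level, adjusted p = 6.31e-05), PIAS1 by 0.40 and the phosphatase PTPN6 by 0.36, and PTPN1 rose by 0.41, a call lost when its probe sets were averaged. With the spike-in scaling 3 genes were lower in each of these lists, beside 6.68% of all genes.

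Many sensors of foreign nucleic acid are themselves interferon-induced. Of 18 genes for sensors, OAS proteins, adaptors and related enzymes, 7 rose and 11 were not called, beside the 14.0% of all genes called higher. OASL rose by 0.69, SAMHD1, a nucleotide hydrolase, by 0.60, the RNA-activated kinase EIF2AK2 by 0.49 and RIGI, a sensor of viral RNA ends, by 0.48 (adjusted p of 0.000365 to 0.00170). The other called genes were OAS3 (0.59), IFIH1 (0.34) and ADAR (0.29).

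Targets more typical of interferon-gamma and of antigen presentation had 3 of 27 genes higher and 4 lower, near the shares of all genes (14.0% and 12.9%). The proteasome subunit PSMB10 rose by 0.83, the tryptophan tRNA synthetase WARS1 by 0.75 and the peptide transporter TAP2 by 0.50, while the proteasome subunit PSMB9 fell by 0.48 (adjusted p of 0.000103 to 0.00113). HLA-E, HLA-F and GBP2 made up the other lower calls. With the spike-in scaling 6 were higher and 2 lower, beside 23.9% and 6.68% of all genes. Leaving out control replicate 3 or CDK4/6 replicate 1 also gave 2 lower, and leaving out control replicate 1 gave 5. The shares of all genes lower there were 10.3%, 10.8% and 11.2%.

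Of 16 NF-kappa B target and subunit genes, 4 fell and none was called higher by limma, beside 12.9% and 14.0% of all genes. At an unadjusted limma p under 0.05, 1 was higher. The inhibitor NFKBIA fell by 0.56, the chemokine CXCL8 by 0.79, the deubiquitinase TNFAIP3 by 0.79 and the subunit RELA by 0.37 (adjusted p of 0.000208 to 0.00151). On plain-name probe sets, which measure 11 of them, 0 were lower, beside 10.7% of all genes. Without control replicate 2, or with the spike-in scaling, 1 was higher, beside 11.9% and 23.9% of all genes.

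Genes of DNA methylation and repeat silencing were listed because loss of silencing can release RNA that interferon sensors read. Of 17, 4 rose and 2 fell, beside 14.0% and 12.9% of all genes. Of all genes at or above the median level, where most of the 17 lay, 24.8% were called higher and 21.0% lower. The maintenance methyltransferase DNMT1 gave -0.0044 (adjusted p = 0.977), at 10.59 in both groups. Its partner UHRF1 rose by 0.61, the histone methyltransferase SUV39H2 by 0.62 and the methyltransferase DNMT3B by 0.40, and TET2, which oxidises methylcytosine, fell by 0.31 (adjusted p of 0.000767 to 0.0111). The number lower was 1 without control replicate 2 or 3 or CDK4/6 replicate 1 or 3, and 3 without CDK4/6 replicate 2. With 1 array left out, 10.1% to 11.2% of all genes were called lower. The spike-in scaling gave 1 lower too, beside 6.68% of all genes. Whether any of these lists bears on the members was not tested.

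**Figure D4:**
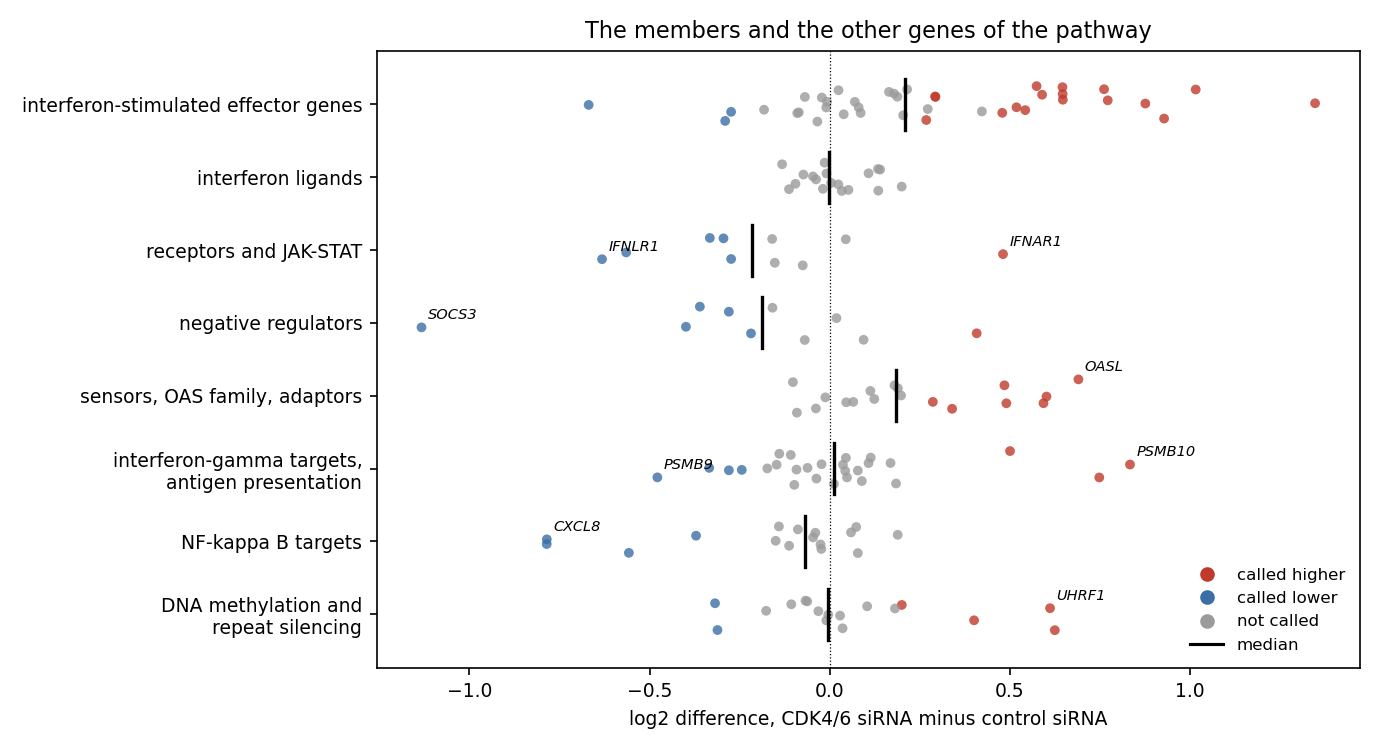
Log2 differences (CDK4/6 siRNA minus control siRNA) of the members and of 7 other gene lists of the pathway, 1 point per gene, with vertical bars at the list medians and red, blue and grey for called higher, called lower and not called. The members have a median of 0.21 and the sensors 0.18, while the receptors (-0.22) and negative regulators (-0.19) lie on the lower side and the interferon ligands (-0.0029) at 0.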

How the data were processed

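Gene expression was measured on 6 single-channel Affymetrix arrays, 3 per siRNA group. Per the submitters' processing notes, the authors deposited RMA values, on a log2 scale as the values show, and the RMA version is not given in the sources used here. RMA equalises the distributions of the arrays, so a change in total RNA cannot be seen, and it damps differences at low levels. Having 3 arrays per group limits the precision.

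Of 54675 probe sets, 62 controls were left out. By GEO's platform annotation, 41097 probe sets had 1 symbol, 1801 had more than 1 and 11777 were unnamed here. The brightest probe set stood for each of 19775 genes, and the 2 probe sets that name a member among several genes were never the brightest. Groups were compared with limma 3.58.1 in R 4.3.3 (lmFit and eBayes, group as the only term). The fit was tested on simulated data. Alternatives were other scalings, probe set choices, filters, thresholds, array weights, a replicate block and each array left out. Members, lists and tests were chosen with earlier results of these data known. Arrays were described in full for the 12 called members with the largest rise, each called fall and the transcription factors, and for other members where probe sets or neighbours disagreed, a choice made after seeing values. From each list, up to 4 called genes with the smallest adjusted p were named, with DNMT1. Further genes named from the lists were chosen after their values were seen. Figures were drawn with matplotlib 3.10.9.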

Additional observations from a re-analysis of the deposited data

How the results depend on the processing

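Of the 17 members that rose, 15 were called in every one of the alternatives that measured them. The exceptions were IFI44 (0.14) and PARP9 (0.20), on plain-name probe sets. That choice left 11 members higher, with 30 measured, beside 12.1% of all genes. The number lower was 1 with the spike-in scaling, at an adjusted p under 0.01 and with every probe set tested separately. Those settings called 6.68%, 7.7% and 10.7% of all genes lower. With 1 array left out, 11.2% to 12.7% of all genes were called higher and 10.1% to 11.2% lower. Of the members, 17 to 20 were then higher and 1 to 2 lower, and the median ran from 0.19 to 0.27. The median was 0.32 with the spike-in scaling and 0.29 without the dimmest 25% of genes. Same-numbered arrays did not deviate together (correlations of -0.010, -0.12 and -0.0066 across genes). Taken over all genes, this check cannot exclude a pairing that acts on some genes. With the replicate block, 19 members were higher and 3 lower, beside 12.5% and 11.4% of all genes.

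With the spike-in scaling, 23.9% of all genes were called higher and 6.68% lower. The interferon ligands then had 4 of 18 higher and the sensors 11 of 18. Receptors and negative regulators each had 3 of 10 lower. Antigen presentation genes had 6 of 27 higher and 2 lower, near those shares. NF-kappa B targets had 1 of 16 higher and silencing genes 1 of 17 lower. With array weights 1 ligand was higher, beside 14.5% of all genes. With the mean of all probe sets 0 receptor genes and 0 negative regulators were higher, beside 12.9% of all genes. Antigen presentation genes had 7 lower with trend and robust options and 2 lower at an adjusted p under 0.01. Of all genes, 14.4% and 7.7% were lower in those settings. NF-kappa B targets had 0 lower on plain-name probe sets, beside 10.7% of all genes. Silencing genes had 1 lower with quantile normalisation or cyclic loess and 0 at an adjusted p under 0.01. The shares of all genes lower there were 13.7%, 13.5% and 7.7%. With 1 array left out, the antigen presentation genes had 2 to 5 lower, the NF-kappa B targets 0 to 1 higher and the silencing genes 1 to 3 lower. The signal of dim members such as MX1, IFI44L and SAMD9L limits what can be seen of them.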
